A study of Mus musculus with 24 samples.

Results

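The Notch pathway was described through 10 genes: the receptors Notch1, Notch2, Notch3 and Notch4, the ligands Dll1, Dll4, Jag1 and Jag2, and the target genes Hes1 and Hey1. They were taken by name from deposited tables that hold 54393 genes each, and all 10 had enough reads to be tested in every comparison. RNA of whole mouse kidneys at embryonic day 18.5 was read in 24 libraries of poly(A)-selected RNA. Knockouts of Dmrt2 (3 libraries), of Hmx3 and Hmx2 together (Hmx3; Hmx2 KO, 6 libraries) and libraries labelled as knockouts of Dmrt2, Hmx3 and Hmx2 (3XKO, 3 libraries) were each set against the same number of control littermates of their own line. The labels name no allele, no deleted exon and no Cre driver. They mark 3 of the 6 Hmx3; Hmx2 controls as WT and give no genotype of the other controls. Nor do they say that the libraries of a group came from separate embryos. P-values therefore measure the spread between these libraries, which may in part be technical. The series asks what these 3 transcription factors do in the development of intercalated cell subtypes of the collecting duct.

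Notch receptors sit in the cell membrane and are activated by ligands on a neighbouring cell. Activation leads to cleavage by ADAM10 and then by gamma-secretase, and the freed intracellular part joins RBPJ in the nucleus and switches on genes such as Hes1 and Hey1. In the mouse collecting duct, Notch signalling favours the principal cell, which takes up water and sodium, over the intercalated cell, which handles acid and base and needs the factor Foxi1. In the rest of the kidney the same genes are used elsewhere: Notch2 and Jag1 act in the forming nephron, Dll4 and Notch4 are genes of endothelium, and Notch3 is a gene of mural cells around vessels.

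The targeted genes were checked against the labels. Dmrt2 stood at 1.56 to 2.26 CPM (reads of a gene relative to a library's scaled total) in Dmrt2 knockouts, against 12.2 to 14.9 CPM in their controls. Hmx2 held 0 to 4 reads in Hmx3; Hmx2 knockouts, against 90 to 208 reads in their controls, and 0 to 2 reads in the libraries labelled triple knockout, against 252 to 354 reads in theirs. Hmx3 was barely read in these 2 lines: it held 0 to 4 reads in Hmx3; Hmx2 knockouts, against 2 to 8 reads in their controls, which overlap. It held 0 reads in the libraries labelled triple knockout, against 2 to 14 reads in theirs, and was too low to test in both lines. In Dmrt2 knockouts Hmx3 stood at 0.869 to 1.07 CPM, against 0.0514 to 0.397 CPM in their controls. There it was tested and not called (log2 fold change 2.28 ± 0.52 SE, adjusted p = 0.0984 in edgeR). Hmx2 rose to 14.1 ± 0.313 CPM in Dmrt2 knockouts, against 4.05 ± 0.854 CPM in their controls (SD, n = 3 each; adjusted p = 2.95e-05 in edgeR). Dmrt2 was not lower in the libraries labelled triple knockout: it stood at 17.7 to 19.2 CPM there, against 10.7 to 12.1 CPM in their controls (log2 fold change 0.69 ± 0.08 SE, edgeR quasi-likelihood test with Benjamini-Hochberg adjustment, adjusted p = 0.00424). These libraries are therefore called by their label. In Hmx3; Hmx2 knockouts Dmrt2 stood at 9.50 to 12.9 CPM, against 7.96 to 10.1 CPM in their controls. There 5 of 6 knockouts lay above every control, and Dmrt2 was not called (log2 fold change 0.32 ± 0.06 SE, adjusted p = 0.226 in edgeR). Total counts ran from 52286824 to 127339273 reads per library, and 3 reads were worth 0.0235 to 0.0584 CPM, a limit that covers counting error only. The members held far more than that in every library, so depth did not limit their detection. The summed level of 4 Y-linked genes passed 1 CPM in 1 of 3 Dmrt2 knockouts and 3 of 3 of their controls. In the Hmx3; Hmx2 line it did so in 2 of 6 knockouts and 4 of 6 controls, and in the triple line in 2 of 3 of each group.

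Markers of the collecting duct, vessels, stroma, nephron, macrophages and blood were all read in every group, and none was at 0 in all libraries of a group. In mm39, the build of the counts, the receptors lie at chr2:26347915-26406675 (Notch1, minus strand), chr3:97920843-98057677 (Notch2, plus), chr17:32339794-32385826 (Notch3, minus) and chr17:34783242-34807477 (Notch4, plus). The ligands lie at chr17:15587616-15597134 (Dll1, minus), chr2:119156265-119166443 (Dll4, plus), chr2:136923376-136958564 (Jag1, minus) and chr12:112871439-112893396 (Jag2, minus), and the targets at chr16:29883202-29886614 (Hes1, plus) and chr3:8728419-8732316 (Hey1, minus). Counts were made without strand, and exons of Notch1, Notch3 and Dll4 overlap antisense genes whose mean level was at most 1.46 CPM, so this share of reads cannot be told apart. Exons of Notch2 overlap Gm42820, on the same strand, by up to 202 bases, and the mean level of that gene was 0.416 CPM. The members' values are levels of whole-kidney RNA and not levels in the collecting duct. In bulk samples, fewer cells of a type and less RNA per cell cannot be told apart.

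The promoters of Notch1, Notch2 and Notch3 are shown because these 3 are the members whose levels went with the level of long genes from library to library, as given further on. Each runs from 250 bases before to 50 bases after the start of the gene, on the gene's own strand, 5′ to 3′, from RefSeq on GRCm38.p6, a build other than the mm39 of the counts. Capitals mark CACNAG, the N box that HES proteins bind, on either strand, and overlapping matches run together. Notch1 is at chr2:26503773-26504072 (minus strand), Notch2 at chr3:98013288-98013587 (plus strand) and Notch3 at chr17:32166841-32167140 (minus strand).
Notch1: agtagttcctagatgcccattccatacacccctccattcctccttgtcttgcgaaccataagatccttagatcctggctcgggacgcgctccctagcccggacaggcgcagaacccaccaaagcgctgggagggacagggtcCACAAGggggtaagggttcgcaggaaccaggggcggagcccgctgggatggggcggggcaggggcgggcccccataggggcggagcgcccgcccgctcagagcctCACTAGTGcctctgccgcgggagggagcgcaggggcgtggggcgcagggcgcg
Notch2: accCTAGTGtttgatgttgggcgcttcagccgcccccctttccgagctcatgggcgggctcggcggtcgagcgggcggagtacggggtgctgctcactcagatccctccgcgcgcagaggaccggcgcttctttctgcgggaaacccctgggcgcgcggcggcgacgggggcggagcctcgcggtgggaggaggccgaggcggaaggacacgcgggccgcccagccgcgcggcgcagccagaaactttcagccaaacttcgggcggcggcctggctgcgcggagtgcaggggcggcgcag
Notch3: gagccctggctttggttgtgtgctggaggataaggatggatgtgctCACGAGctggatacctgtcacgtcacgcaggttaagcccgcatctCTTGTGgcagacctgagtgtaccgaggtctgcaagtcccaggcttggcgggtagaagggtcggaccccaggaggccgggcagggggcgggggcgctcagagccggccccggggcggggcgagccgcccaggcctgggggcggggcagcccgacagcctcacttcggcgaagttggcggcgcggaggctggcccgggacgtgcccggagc
The motif occurred 3 times in the Notch1 promoter, of which 2 matches overlap on opposite strands, once in that of Notch2 and 2 times in that of Notch3. The targets Hes1 and Hey1 had no promoter in the table, so nothing is said here of theirs. Of the 8 members with a promoter in the table, 5 held at least 1 N box (also Dll1 and Dll4), and 42.5% of 32841 promoters of the same length did. Dll1 had 2 promoters, of which 1 held the motif, so members are counted per gene and the shares per promoter. TGGGAA, the core that RBPJ binds, was in 0 of these 8 members' promoters on either strand and in 25.6% of all. A match is a run of letters and not a measured binding site.

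**Figure D1:**
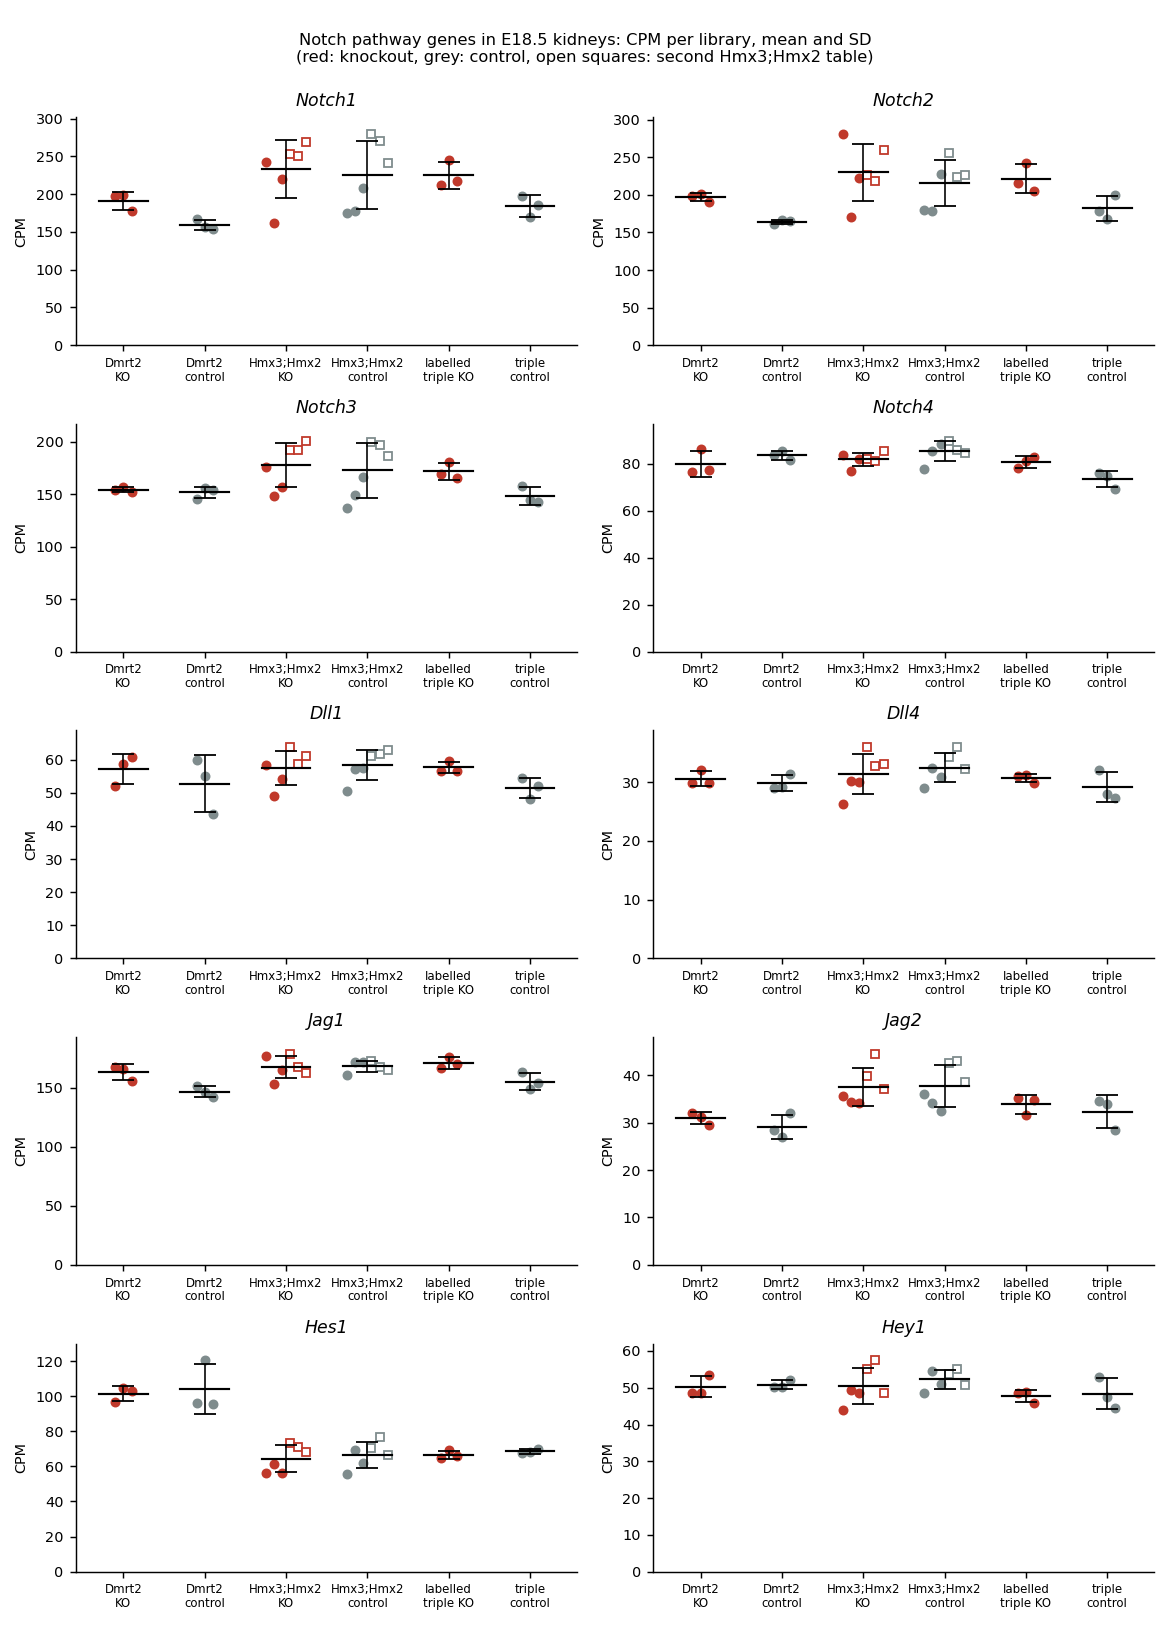
Level of each Notch pathway gene in CPM (vertical axis, from 0) in every library of the 6 groups (horizontal axis), with the mean and SD of each group; red points are knockouts, grey points controls, and open squares the second Hmx3; Hmx2 table. Notch1 and Notch2 stand higher in Dmrt2 knockouts and in libraries labelled triple knockout than in any of their controls, and Hes1 stands at 95.7 to 121 CPM in the Dmrt2 line and at 55.6 to 76.9 CPM in all other libraries.

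Of the receptors, Notch1 and Notch2 had the largest differences among the 10 members in the Dmrt2 and triple comparisons, and neither passed the test across all genes. Notch1 stood at 198, 199 and 178 CPM in Dmrt2 knockouts, against 167, 157 and 154 CPM in their controls. Every knockout library lay above every control, and the log2 fold change was 0.27 ± 0.06 SE (adjusted p = 0.101 in edgeR). With Y-linked expression as a covariate, since 1 of 3 knockouts and 3 of 3 controls expressed these genes, it was 0.32 ± 0.09 SE. In the libraries labelled triple knockout Notch1 stood at 212, 245 and 217 CPM, against 198, 170 and 185 CPM in their controls. The groups again did not overlap, and the log2 fold change was 0.29 ± 0.07 SE (adjusted p = 0.0804 in edgeR). In Hmx3; Hmx2 knockouts the lowest, median and highest library held 162, 247 and 269 CPM, against 176, 225 and 280 CPM in controls. There the groups overlapped over nearly their whole range, with a log2 fold change of 0.05 ± 0.09 SE (95% limits -0.12 to 0.23, adjusted p = 0.978 in edgeR). Part of the range in each group lay between the tables of this line: in the second table Notch1 averaged 258 ± 9.80 CPM in knockouts and 264 ± 19.8 CPM in controls, and in the first it averaged 208 ± 41.7 CPM in knockouts and 187 ± 18.3 CPM in controls (SD, n = 3 each).

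Notch2, the receptor that nephron formation depends on most, gave nearly the same values. Dmrt2 knockouts held 198, 202 and 191 CPM, against 161, 166 and 165 CPM in their controls. Its knockout libraries lay close together and above all controls of their own line. Notch2 came nearest to the threshold of 0.05 of all members, with a log2 fold change of 0.26 ± 0.05 SE (adjusted p = 0.0538 in edgeR). The 3 Dmrt2 controls held the lowest Notch2 levels of all 24 libraries. The Dmrt2 knockouts lay within the range of the Hmx3; Hmx2 controls, which was 178 to 256 CPM. Libraries labelled triple knockout held 216, 243 and 206 CPM, against 178, 168 and 200 CPM in their controls (log2 fold change 0.28 ± 0.08 SE, adjusted p = 0.114 in edgeR). The lowest of these 3 libraries, at 206 CPM, was close to the highest control, at 200 CPM, so the groups were only just apart. Hmx3; Hmx2 knockouts held 171 CPM at the lowest, 225 CPM at the median and 281 CPM at the highest, against 178, 225 and 256 CPM in controls (log2 fold change 0.09 ± 0.12 SE, 95% limits -0.14 to 0.33, adjusted p = 0.975 in edgeR). The median of the knockouts was thus nearly the same as that of the controls.

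Notch2 lies on chromosome 3, where 18 of 1015 tested genes were called in the Dmrt2 comparison, 0 of 1023 in the Hmx3; Hmx2 comparison and 12 of 1141 in the triple comparison. Over all tested genes, 0.444%, 0.0202% and 1.03% were called in the same order. Within 2000000 bases of Notch2, a window chosen after the data were seen, 2 of 69 other tested genes were called in the Dmrt2 comparison. Hsd3b2, a steroid dehydrogenase gene, fell to 1.16 to 2.76 CPM in Dmrt2 knockouts, against 23.4 to 29.2 CPM in their controls. Zfp697 rose to 55.2 to 60.1 CPM in Dmrt2 knockouts, against 42.1 to 45.8 CPM in their controls. For both, the Dmrt2 controls stood apart from the 12 Hmx3; Hmx2 libraries, which held 1.10 to 2.98 CPM of Hsd3b2 and 55.6 to 61.2 CPM of Zfp697. What these neighbours share with the Notch2 difference was not tested. None of the 68 and 81 other tested genes in this window was called in the Hmx3; Hmx2 and triple comparisons. Hsd3b2 still varied in the triple line, where it held 1.49, 16.6 and 23.0 CPM at the lowest, median and highest library labelled triple knockout, against 1.16 to 1.91 CPM in their controls (adjusted p = 0.265 in edgeR). Within the same distance of the other receptors, called genes were found in the triple comparison, where 1.03% of all tested genes were called: Gpsm1 near Notch1 (1 of 117 tested genes, log2 fold change 0.25 ± 0.05 SE), Col11a2 near both Notch3 and Notch4 (0.64 ± 0.08 SE), and Tap1 and Atat1 near Notch4 (3 of 167 with Col11a2; -0.58 ± 0.11 SE and 0.37 ± 0.08 SE).

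Notch3 and Notch4 separated from their controls in 1 line each, that of the libraries labelled triple knockout, and neither was called. Notch3 held 155, 157 and 152 CPM in Dmrt2 knockouts, against 146, 156 and 154 CPM in their controls (log2 fold change 0.02 ± 0.05 SE). In the libraries labelled triple knockout it held 170, 181 and 165 CPM, against 158, 144 and 143 CPM in their controls. Those groups did not overlap, and the log2 fold change was 0.22 ± 0.06 SE (adjusted p = 0.0980 in edgeR). In Hmx3; Hmx2 knockouts it ran from 148 through a median of 184 to 201 CPM, against 137, 177 and 200 CPM in controls, an overlap of nearly the whole range (log2 fold change 0.04 ± 0.05 SE).

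Notch4 was the only receptor with a negative log2 fold change in any line. It held 76.3, 86.5 and 77.4 CPM in Dmrt2 knockouts, against 83.6, 85.5 and 81.6 CPM in their controls (log2 fold change -0.06 ± 0.06 SE), and 76.9, 82.0 and 85.6 CPM at the lowest, median and highest Hmx3; Hmx2 knockout, against 77.8, 85.7 and 89.8 CPM in controls (-0.06 ± 0.03 SE, adjusted p = 0.953 in edgeR). In libraries labelled triple knockout it held 78.1, 81.1 and 83.02 CPM, against 76.1, 74.6 and 69.4 CPM in their controls. Only there did its groups separate, with the knockouts above (log2 fold change 0.14 ± 0.05 SE, adjusted p = 0.207 in edgeR).

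Among the ligands, Jag1 followed the pattern of Notch1 and Notch2 at a smaller size, and it was not called either. Jag1 held 167, 166 and 155 CPM in Dmrt2 knockouts, against 151, 146 and 142 CPM in their controls (log2 fold change 0.15 ± 0.06 SE, adjusted p = 0.311 in edgeR). Libraries labelled triple knockout held 167, 176 and 170 CPM, against 163, 149 and 154 CPM in their controls (0.14 ± 0.05 SE, adjusted p = 0.193 in edgeR). Both pairs of groups were free of overlap. In Hmx3; Hmx2 knockouts Jag1 ran from 153 through 166 to 179 CPM, against 161, 170 and 172 CPM in controls, and the 95% limits of its log2 fold change were -0.08 to 0.06.

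Dll1, a ligand of the forming nephron, separated in the triple line alone. Libraries labelled triple knockout held 56.6, 59.7 and 56.6 CPM, against 54.3, 48.3 and 52.1 CPM in their controls (log2 fold change 0.17 ± 0.06 SE, adjusted p = 0.170 in edgeR). In the Dmrt2 line it held 52.1, 58.6 and 61.0 CPM in knockouts, against 60.0, 55.0 and 43.5 CPM in controls. The control of 43.5 CPM was the lowest of all 24 libraries, and the 95% limits of the log2 fold change were wide, at -0.12 to 0.35. Hmx3; Hmx2 knockouts held 49.2 to 63.8 CPM, against 50.5 to 62.8 CPM in controls.

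Dll4 and Jag2 overlapped with their controls in every line. Dll4, a ligand of endothelium, held 29.8 to 32.1 CPM in Dmrt2 knockouts, against 29.0 to 31.4 CPM in controls, 26.2 to 35.9 CPM in Hmx3; Hmx2 knockouts, against 29.0 to 35.9 CPM, and 29.8 to 31.3 CPM in libraries labelled triple knockout, against 27.3 to 32.01 CPM. Its widest 95% limits of the log2 fold change were those of the triple comparison, -0.05 to 0.22. Jag2 held 29.5 to 32.1 CPM in Dmrt2 knockouts, against 27.1 to 31.9996 CPM in controls, 34.0 to 44.5 CPM in Hmx3; Hmx2 knockouts, against 32.4 to 43.0 CPM, and 31.6 to 35.2 CPM in libraries labelled triple knockout, against 28.4 to 34.6 CPM. Its widest 95% limits were again those of the triple comparison, -0.08 to 0.22. The limits of both genes leave room for differences of the size seen in Jag1.

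The target genes Hes1 and Hey1, transcriptional repressors that Notch activity switches on, had small negative log2 fold changes in all 3 comparisons, none of them called and several near 0. Hes1 held 96.7, 105 and 103 CPM in Dmrt2 knockouts, against 96.0, 121 and 95.7 CPM in their controls (log2 fold change -0.04 ± 0.08 SE, 95% limits -0.20 to 0.13). In Hmx3; Hmx2 knockouts it ran from 56.1 through a median of 64.7 to 73.5 CPM, against 55.6, 67.9 and 76.9 CPM in controls (-0.06 ± 0.05 SE, 95% limits -0.16 to 0.04). In libraries labelled triple knockout it held 64.8, 69.3 and 66.1 CPM, against 67.5, 68.3 and 70.1 CPM in their controls (-0.04 ± 0.05 SE, 95% limits -0.13 to 0.06). The libraries overlapped each time, and in the Dmrt2 comparison the sign rests on the control of 121 CPM, without which the log2 fold change was 0.08. The larger contrast of Hes1 was between lines: all 6 libraries of the Dmrt2 line, knockout and control, lay above all 18 others. Line and deposited table cannot be told apart for this contrast, and it was not tested.

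Hey1 held 48.5, 48.7 and 53.6 CPM in Dmrt2 knockouts, against 50.1, 50.3 and 52.1 CPM in their controls (log2 fold change -0.02 ± 0.06 SE). Hmx3; Hmx2 knockouts ran from 43.9 through 48.9 to 57.4 CPM, against 48.6, 52.3 and 55.2 CPM in controls (-0.06 ± 0.05 SE), and libraries labelled triple knockout held 48.6, 48.9 and 45.8 CPM, against 52.9, 47.5 and 44.6 CPM in their controls (-0.01 ± 0.06 SE). Its groups overlapped in all 3 lines, and its negative sign turned in the Dmrt2 comparison without knockout replicate 1 or 2 (0.0060 and 0.0064) and in the triple comparison without knockout replicate 3 or control replicate 1 (0.0055 and 0.05).

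**Figure D2:**
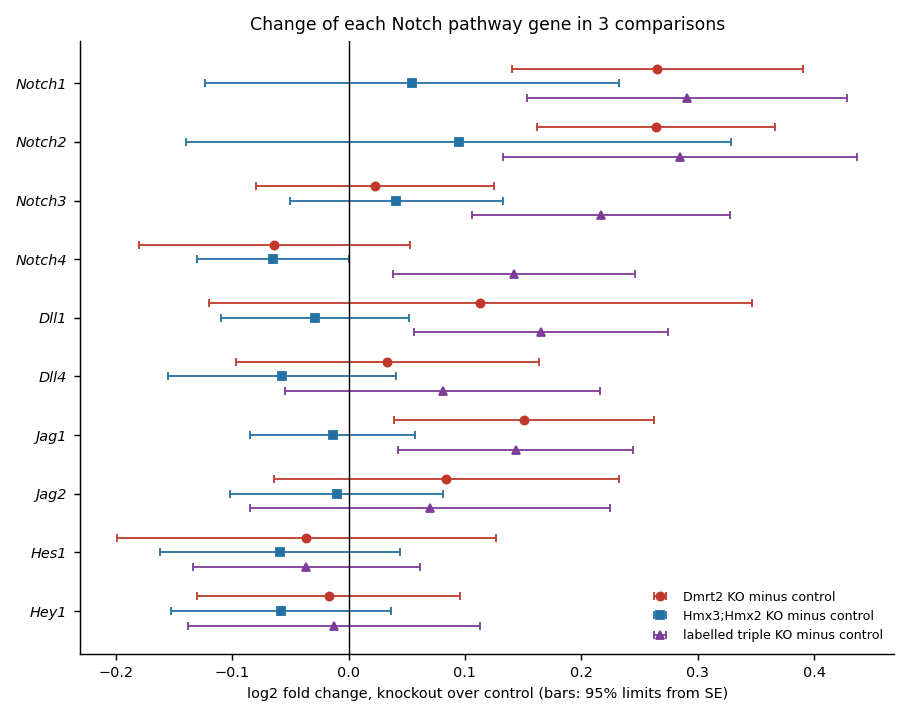
Log2 fold change of knockout over control (horizontal axis) for each Notch pathway gene (vertical axis) in the Dmrt2, Hmx3; Hmx2 and triple comparisons, with 95% limits from the SE. Limits lie above 0 for Notch1, Notch2 and Jag1 in the Dmrt2 comparison and for all receptors, Dll1 and Jag1 in the triple comparison, and for no member in the Hmx3; Hmx2 comparison.

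Counted over the members, 0 of 10 were called in any comparison at the adjusted threshold of 0.05. Over all genes tested, 0.444% were called in the Dmrt2 comparison, 0.0202% in the Hmx3; Hmx2 comparison and 1.03% in the triple comparison, so a count of 0 of 10 does not set the members apart from other genes. At an unadjusted p under 0.05 there were 3 members in the Dmrt2 comparison (12.3% of all tested genes), 0 in the Hmx3; Hmx2 comparison (4.88%) and 6 in the triple comparison (17.9%). Every knockout library lay above every control for 3 members in the Dmrt2 comparison (9.69% of tested genes), 0 in the Hmx3; Hmx2 comparison (0.0202%) and 6 in the triple comparison (11.6%), and for no member did they all lie below. The members' median log2 fold change was 0.06, -0.02 and 0.14 in the Dmrt2, Hmx3; Hmx2 and triple comparisons, beside medians over all tested genes of -0.0021, -0.0068 and 0.00098. By role, the median of the 4 receptors was 0.14, 0.05 and 0.25, that of the 4 ligands 0.10, -0.02 and 0.11, and that of the 2 targets -0.03, -0.06 and -0.02, in the same order of comparisons. With DESeq2, Notch1 and Notch2 were called in the Dmrt2 comparison (adjusted p = 0.0106 and 0.000669), and Notch1, Notch2 and Notch3 in the triple comparison (0.00511, 0.0116 and 0.0195). Without the filter on low counts, edgeR called these same members (adjusted p from 0.000166 to 0.0104), and in the triple comparison it called Notch2 without control replicate 3 (0.0302) and Notch1 with Y-linked expression as a covariate (0.0426). Both DESeq2 and the fit without the filter also called more genes in all than the main tests. Without the filter, 676 genes were called in the Dmrt2 and 1510 in the triple comparison, against 88 and 222 in the main tests.

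The receptor differences were also set against each other, since the Dmrt2 and triple comparisons separated receptors that the Hmx3; Hmx2 comparison did not. Separation itself is not comparable between these designs. With 3 libraries per group, 9.69% and 11.6% of all tested genes lay wholly above their controls in the Dmrt2 and triple comparisons. With 6 per group, 0.0202% did in the Hmx3; Hmx2 comparison. In a fit of all 24 libraries, 0 of 10 members were called for the triple effect minus the Dmrt2 effect (0.394% of 22101 genes called), 0 for the triple effect minus the Hmx3; Hmx2 effect (0.968%) and 0 for the Dmrt2 effect minus the Hmx3; Hmx2 effect (0.154%). Notch4 came nearest, with its triple effect above its Hmx3; Hmx2 effect by 0.20 ± 0.06 SE (adjusted p = 0.140 in edgeR) and above its Dmrt2 effect by 0.20 ± 0.07 SE (adjusted p = 0.277 in edgeR). For Notch1, the Dmrt2 effect exceeded the Hmx3; Hmx2 effect by 0.21 ± 0.13 SE (adjusted p = 0.770 in edgeR), and the triple effect exceeded it by 0.23 ± 0.13 SE (adjusted p = 0.497 in edgeR). None of these differences between lines passed the test. Between the 2 deposited tables of the Hmx3; Hmx2 line, the effect differed for 0 of 10 members and for 0 of 20258 genes (edgeR, unadjusted p of the members 0.175 to 0.920).

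Around the receptors and ligands, 57 further genes of the pathway were measured, and 0 of 57 were called in any of the 3 comparisons. Their log2 fold changes were positive for 33 and negative for 24 genes in the Dmrt2 comparison, positive for 27 and negative for 30 in the Hmx3; Hmx2 comparison, and positive for 25 and negative for 32 in the triple comparison, with medians of 0.02, -0.0035 and -0.01. At an unadjusted p under 0.05 there were 9, 3 and 11 of them, beside 12.3%, 4.88% and 17.9% of all tested genes, and so near the background. Of all tested genes, 49.4%, 46.3% and 50.2% were positive. The genes of the nuclear complex were positive for 11 of 14 in the Dmrt2 comparison, 12 of 14 in the Hmx3; Hmx2 comparison and 8 of 14 in the triple comparison. The 10 genes of receptor cleavage were positive for 7, 4 and 1 of 10 in the same order, with medians of 0.06, -0.0039 and -0.09. Other ligands and inhibitors of ligands were positive for 0, 1 and 0 of 4, with medians of -0.48, -0.09 and -0.24. Positive counts were 6, 4 and 7 of 11 for ligand endocytosis and receptor glycosylation and 6, 4 and 7 of 9 for modifiers and turnover. They were 3, 2 and 2 of 9 for other targets.

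Spen, a large co-repressor of RBPJ, averaged 237 ± 18.1 CPM in Dmrt2 knockouts and 192 ± 4.22 CPM in their controls, and 254 ± 15.8 CPM in libraries labelled triple knockout and 222 ± 8.87 CPM in theirs (SD, n = 3 each). Its log2 fold changes, 0.30 ± 0.06 SE and 0.20 ± 0.06 SE, missed the threshold (adjusted p = 0.0657 and 0.127 in edgeR). Ep300, a histone acetyltransferase recruited by the Notch complex, averaged 178 ± 12.8 CPM in Dmrt2 knockouts and 146 ± 1.28 CPM in their controls (SD, n = 3 each; log2 fold change 0.28 ± 0.06 SE, adjusted p = 0.0799 in edgeR). Both genes are as long as Notch1, with 14089 bases of exon in Spen and 14273 in Ep300. Maml3, a coactivator that binds Notch and RBPJ, averaged 80.6 ± 5.64 CPM in Dmrt2 knockouts and 70.5 ± 3.33 CPM in their controls (log2 fold change 0.19 ± 0.06 SE, adjusted p = 0.240 in edgeR), and its log2 fold change was 0.03 ± 0.05 SE in the Hmx3; Hmx2 and -0.02 ± 0.05 SE in the triple comparison. In the Hmx3; Hmx2 comparison Spen stood at 0.17 ± 0.08 SE and Ep300 at 0.16 ± 0.11 SE, and Ep300 in the triple comparison at 0.19 ± 0.07 SE.

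Dtx3, of the Deltex family of ubiquitin ligases, had log2 fold changes of opposite sign in the Hmx3; Hmx2 and triple comparisons. It averaged 130 ± 8.91 CPM in Hmx3; Hmx2 knockouts and 140 ± 6.90 CPM in their controls (SD, n = 6 each; log2 fold change -0.11 ± 0.04 SE, adjusted p = 0.953 in edgeR). In libraries labelled triple knockout it averaged 133 ± 6.81 CPM, against 111 ± 11.4 CPM in their controls (SD, n = 3 each; 0.26 ± 0.07 SE, adjusted p = 0.121 in edgeR). In the Dmrt2 comparison its log2 fold change was -0.12 ± 0.07 SE. None of the 3 values passed the test. Neurl1a, a ubiquitin ligase of the Neuralized family that acts on ligands, averaged 8.93 ± 0.796 CPM in libraries labelled triple knockout and 7.21 ± 0.225 CPM in their controls (0.31 ± 0.10 SE, adjusted p = 0.151 in edgeR). In the Hmx3; Hmx2 comparison Maml2, a relative of Maml3, and Neurl1b, a relative of Neurl1a, had log2 fold changes of 0.12 ± 0.05 SE and 0.08 ± 0.04 SE, both with an adjusted p of 0.953 in edgeR.

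Of the pathway genes with a known place in the collecting duct, Mib1, the ubiquitin ligase that ligands need in the signalling cell, had positive log2 fold changes in all 3 comparisons, of 0.14 ± 0.06 SE, 0.10 ± 0.07 SE and 0.12 ± 0.06 SE for Dmrt2, Hmx3; Hmx2 and triple. Elf5, a factor of principal cells, stood at -0.12 ± 0.07 SE, 0.03 ± 0.05 SE and -0.0069 ± 0.07 SE. These 2 genes were picked for their place in the duct after their values were seen, and neither was called (smallest adjusted p = 0.320 in edgeR, for Mib1 in the triple comparison).

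Markers of duct cells were read beside these values. The summed level of 8 principal cell markers was 641 to 699 CPM in Dmrt2 knockouts, against 710 to 983 CPM in their controls, 571 to 803 CPM in Hmx3; Hmx2 knockouts, against 591 to 734 CPM, and 551 to 656 CPM in libraries labelled triple knockout, against 681 to 749 CPM. The sum was lower without overlap in the Dmrt2 and triple comparisons, though 0 of the 8 markers were called in any (Avpr2 had too few reads to be tested in the Hmx3; Hmx2 comparison). Aqp2, a water channel, made up the largest part of it, at 292 ± 11.4 CPM in Dmrt2 knockouts and 420 ± 121.9 CPM in their controls (adjusted p = 0.429 in edgeR), and 249 ± 48.7 CPM in libraries labelled triple knockout and 294 ± 38.5 CPM in theirs (adjusted p = 0.548 in edgeR; SD, n = 3 each). Of the 8 markers, 2 were positive in the Dmrt2 comparison and 1 in the triple comparison. The 8 shared intercalated cell markers summed to 300 to 327 CPM in Dmrt2 knockouts, against 338 to 356 CPM, 373 to 440 CPM in Hmx3; Hmx2 knockouts, against 360 to 389 CPM, and 371 to 387 CPM in libraries labelled triple knockout, against 355 to 420 CPM. In the Dmrt2 comparison this sum, too, was lower without overlap. Such separation is frequent with 3 libraries per group. In the Dmrt2 and triple comparisons, 9.69% and 11.6% of single tested genes lay wholly above their controls. The share lying wholly below, and that for sums of genes, was not counted. Atp6v1g3, a subunit of the proton pump, was the 1 of these 8 intercalated cell markers called. It fell to 7.81 ± 0.839 CPM in Dmrt2 knockouts, against 13.2 ± 1.32 CPM in their controls, and to 10.6 ± 1.03 CPM in libraries labelled triple knockout, against 14.8 ± 0.886 CPM in theirs (SD, n = 3 each; adjusted p = 0.0153 and 0.0403 in edgeR). Foxi1 averaged 34.5 ± 1.68 CPM in Dmrt2 knockouts and 41.5 ± 3.84 CPM in their controls (log2 fold change -0.27 ± 0.07 SE, adjusted p = 0.161 in edgeR). Its sign was the opposite in the other lines, at 37.9 ± 2.21 CPM in Hmx3; Hmx2 knockouts and 33.2 ± 2.66 CPM in their controls (0.19 ± 0.05 SE, adjusted p = 0.908 in edgeR), and 43.2 ± 1.86 CPM in libraries labelled triple knockout and 41.1 ± 1.18 CPM in theirs (0.08 ± 0.05 SE, adjusted p = 0.475 in edgeR).

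Of markers of other cells that use Notch, the 10 of endothelium summed to 1470 to 1516 CPM in Dmrt2 knockouts, against 1404 to 1473 CPM, and to 1391 to 1426 CPM in libraries labelled triple knockout, against 1330 to 1537 CPM. The 6 mural cell markers summed to 1033 to 1064 CPM in Dmrt2 knockouts, against 1094 to 1291 CPM, and to 1181 to 1237 CPM in libraries labelled triple knockout, against 971 to 1176 CPM. That sum was lower without overlap in the Dmrt2 comparison and higher without overlap in the triple comparison. The 6 nephron progenitor markers summed to 218 to 268 CPM in Dmrt2 knockouts, against 208 to 315.3 CPM, and to 196 to 275 CPM in libraries labelled triple knockout, against 189 to 229 CPM, where 6 of 6 were positive with a median of 0.14. The 6 podocyte markers summed to 1343 to 1370 CPM in Dmrt2 knockouts, against 1168 to 1424 CPM, and to 1306 to 1315 CPM in libraries labelled triple knockout, against 1387 to 1496 CPM, which was lower without overlap. The 8 markers of ureteric epithelium summed to 783 to 805 CPM in Dmrt2 knockouts, against 836 to 891 CPM, again lower without overlap, and to 715 to 769 CPM in libraries labelled triple knockout, against 754 to 878 CPM. In the Hmx3; Hmx2 comparison 9 of the 10 endothelium markers were negative and 1 positive, with a median of -0.06. Of these 10, 4 had an unadjusted p under 0.05 in edgeR, beside 4.88% of all tested genes. Mural cell, nephron progenitor, podocyte and ureteric markers had 0 such genes there, with medians of 0.02, 0.02, 0.02 and 0.0059. None of the markers of these 5 cell types was called in any comparison, where 0.444%, 0.0202% and 1.03% of all tested genes were. Separation of the sums has the same limit as for the duct markers: 9.69% and 11.6% of single tested genes lay wholly above their controls in the Dmrt2 and triple comparisons. No such share was counted for sums. The part of cell composition in the receptor values was not tested.

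Levels were compared between genes per kilobase of exon. Over the 24 libraries the order ran from Hes1, at 37.0 ± 8.61 CPM per kb, through Jag1 (28.0 ± 1.71), Notch3 (20.5 ± 2.47), Notch2 (19.2 ± 3.06), Hey1 (15.4 ± 1.05), Notch1 (14.7 ± 2.75), Dll1 (13.4 ± 1.21), Notch4 (10.1 ± 0.604) and Dll4 (8.04 ± 0.634) to Jag2 (4.97 ± 0.658; CPM per kb, SD). Jag1 lay above Notch3, Dll1 above Notch4, Notch4 above Dll4 and Dll4 above Jag2 in all 24 libraries. Hey1 and Notch1 could not be ordered: Hey1 was the higher in 13 of 24 libraries, with Notch1 ahead in the mean of the 12 knockouts (15.5 against 15.2 CPM per kb) and Hey1 ahead in the mean of the 12 controls (15.6 against 13.96 CPM per kb). Notch3 lay above Notch2 in 19 of 24 libraries, Notch2 above Hey1 in 20, Notch1 above Dll1 in 19 and Hes1 above Jag1 in 21. The widest spread was that of Hes1, which holds the contrast between the Dmrt2 line and the others.

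**Figure D3:**
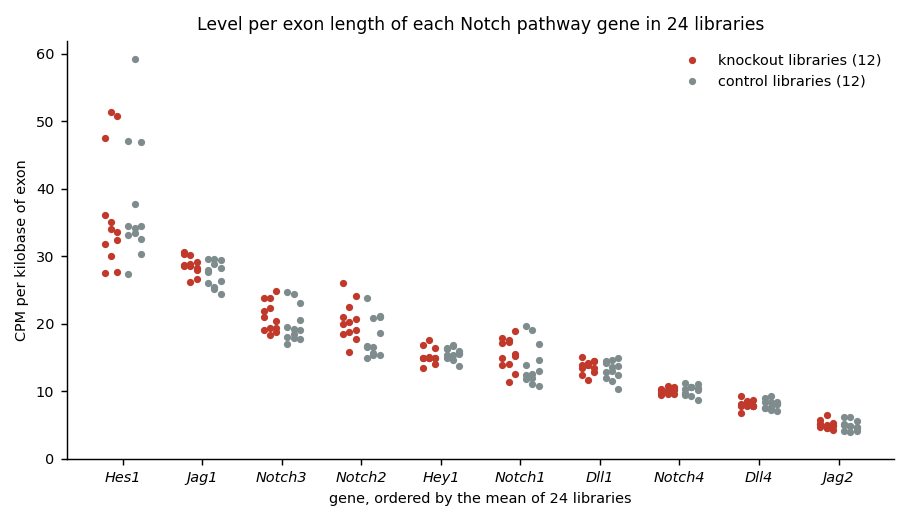
Level per kilobase of exon (vertical axis, CPM per kb, from 0) of each Notch pathway gene in the 12 knockout and 12 control libraries, ordered by the mean over 24 libraries. Hes1 is highest at 37.0 CPM per kb and splits into 6 libraries of the Dmrt2 line at 47.0 CPM per kb or more and 18 at 37.7 or less, and Jag2 is lowest at 4.97 CPM per kb.

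The members did not vary alike between libraries of one group. After each library was set against the mean of its own table and group, the residual SD on the log2 scale was 0.17 for Notch2 and 0.14 for Notch1, against a median of 0.10 over 15039 genes, and 0.06 for Jag1 and 0.07 for Notch4. These centred levels were correlated over the 24 libraries for the 45 pairs of members, with permutation within table and group (100000 resamples, two-sided). Notch1 and Notch2 went together most closely (Pearson r = 0.865, permutation p = 0.00122, adjusted over 45 pairs 0.0274; Spearman rho = 0.791, permutation p = 0.00109, adjusted 0.0245), with r = 0.715 without the 2 libraries farthest from the median of Notch1. Notch1 and Jag1 had r = 0.773 (permutation p = 0.00114, adjusted 0.0274) and rho = 0.755 (permutation p = 0.00059, adjusted 0.0245), with r = 0.633 without those 2. Notch1 and Notch3 had r = 0.769 (adjusted permutation p = 0.0403) and rho = 0.700 (adjusted permutation p = 0.0609), with r = 0.680 without them. Notch2 and Notch3 had r = 0.760 (adjusted permutation p = 0.0571) and rho = 0.663 (adjusted permutation p = 0.0609), and did not pass. The first 3 were the pairs at or under 0.05 by Pearson r, of which Notch1 with Notch3 missed it by Spearman rho, and 31 of the 45 pairs were positive, with a median r of 0.24. Neither target was in a pair past the threshold, and Hey1 went most closely with Dll4 (r = 0.688, adjusted permutation p = 0.0571).

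The genes with the most similar centred levels differed from member to member. For Notch1 they were Srrm2 (r = 0.959), Golga4 (0.949) and Baz2b (0.935), for Notch2 Tpr (0.968), Huwe1 (0.967) and Setd2 (0.967), and for Notch3 Nisch (0.914), Ubr2 (0.913) and Gtf3c1 (0.902), each the highest of 15038 genes over 24 libraries. These 9 genes have 9814 to 23507 bases of exon, where the median of 15039 expressed genes was 4319. Hes1 was most like Lef1 (0.832), Mark2 (0.826) and Uncx (0.812), and Hey1 most like Fzd7 (0.860), Sik1 (0.813) and Bhlhe40 (0.809). Dll4 was most like Ypel2 (0.826), Neurl1b (0.795) and Cyth1 (0.776), and Neurl1b belongs to the pathway list itself. For the other members the closest was Sipa1l3 for Notch4 (0.856), Sall3 for Dll1 (0.806), Ints6 for Jag1 (0.913) and C2cd2l for Jag2 (0.847). Among the 21 closest genes of the 7 members other than Notch1 to Notch3, exon lengths ran from 3136 to 16805 bases and 6 had at least 8000. Long partners were thus found outside the receptors too, such as Ints6 with 16805 bases for Jag1 and Lef1 with 8788 for Hes1.

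Exon length therefore was set beside the members' values. The receptors are long, with 14232 bases of exon in Notch1, 10782 in Notch2, 8089 in Notch3 and 8061 in Notch4, and the targets short, with 2037 in Hes1 and 3265 in Hey1. A long-gene level was taken for each library as the median centred log2 CPM of 2590 genes with at least 8000 bases of exon, members left out, a measure chosen after the data were seen. It ran from -0.04 to 0.0018 in Dmrt2 knockouts, against -0.14 to -0.09 in their controls, with no overlap. In Hmx3; Hmx2 knockouts it ran from -0.02 to 0.10, against -0.07 to 0.06 in controls, and in libraries labelled triple knockout from 0.05 to 0.12, against 0.02 to 0.07 in theirs. Over the 24 centred libraries the level went with Notch2 (r = 0.864, permutation p = 0.0001, adjusted over 10 members 0.001; rho = 0.833, adjusted permutation p = 0.0014), Notch3 (r = 0.827, adjusted permutation p = 0.00743; rho = 0.737, adjusted 0.012) and Notch1 (r = 0.804, adjusted permutation p = 0.00743; rho = 0.754, adjusted 0.012). Without the 2 libraries farthest from its median, r was 0.793, 0.743 and 0.712 for Notch2, Notch3 and Notch1. For Notch4 r was 0.533 (adjusted permutation p = 0.123), for Jag1 0.497 (0.168), for Dll1 0.277, and for Dll4, Jag2, Hes1 and Hey1 between -0.123 and 0.052.

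**Figure D4:**
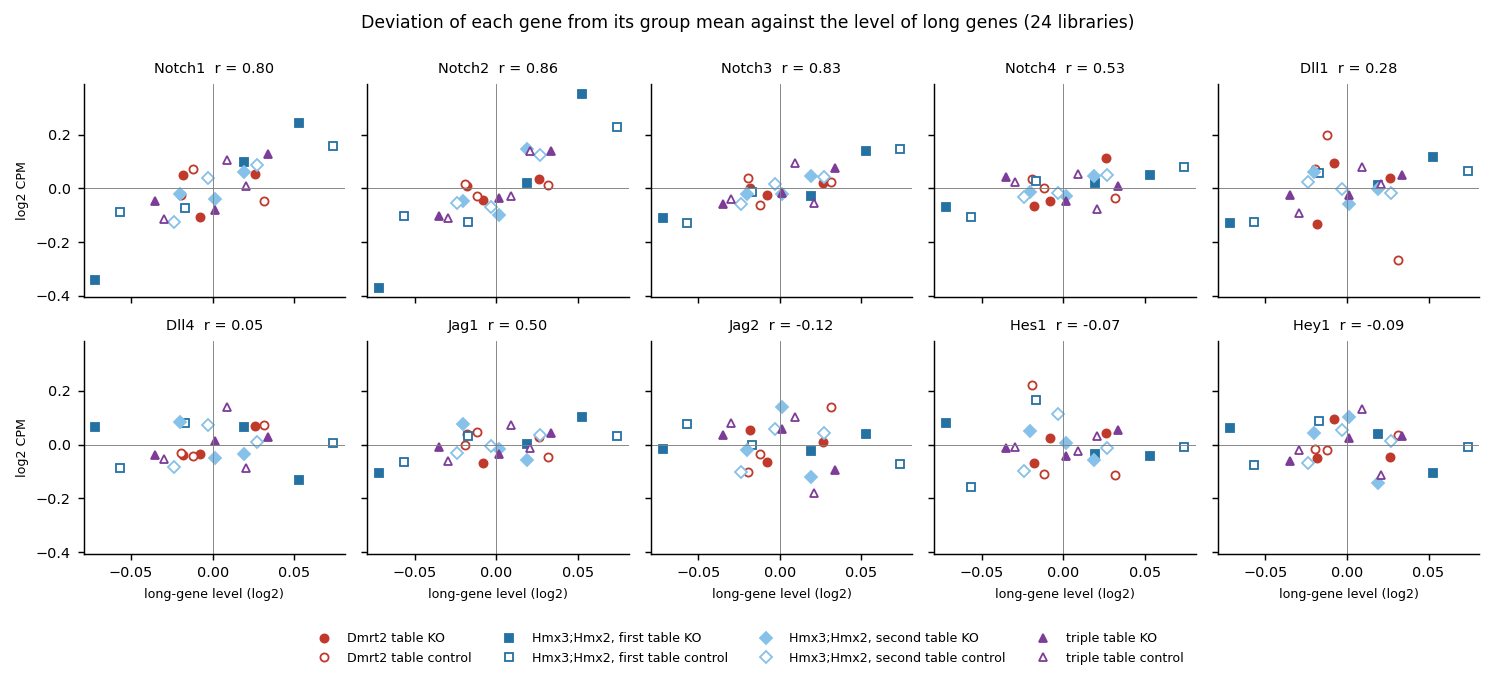
Centred log2 CPM of each Notch pathway gene (vertical axes) against the centred long-gene level (horizontal axes, log2) in 24 libraries, with filled points for knockouts, open points for controls and a colour for each deposited table. Points follow a rising line for Notch1, Notch2 and Notch3 (r = 0.80, 0.86 and 0.83) and scatter without one for Hes1 and Hey1 (r = -0.07 and -0.09).

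Genes with at least 8000 bases of exon had median log2 fold changes of 0.09, 0.04 and 0.04 in the Dmrt2, Hmx3; Hmx2 and triple comparisons, and 77.7%, 72.7% and 64.3% of them were positive. Genes under 1000 bases had medians of -0.10, -0.03 and 0.14, with 37.9%, 44.0% and 60.5% positive, so in the triple comparison the shortest genes had a larger median than the longest. Notch1 lay above 91.2% and Notch2 above 91.1% of other long genes in the Dmrt2 comparison, and above 91.8% and 91.6% in the triple comparison. When the long-gene level was added to the fit, Notch1 stood at 0.30 ± 0.17 SE and Notch2 at 0.22 ± 0.13 SE in the Dmrt2 comparison, and at 0.17 ± 0.07 SE and 0.13 ± 0.06 SE in the triple comparison, with adjusted p in edgeR of 0.383 or more. In the Hmx3; Hmx2 comparison their sign turned, to -0.10 ± 0.04 SE and -0.10 ± 0.06 SE. The triple differences of both genes were thus smaller with the covariate by over 1.5 times, and in the Dmrt2 comparison the limits of both widened to include 0. There the long-gene level did not overlap between knockouts and controls, so the level and the genotype cannot be told apart.

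**Figure D5:**
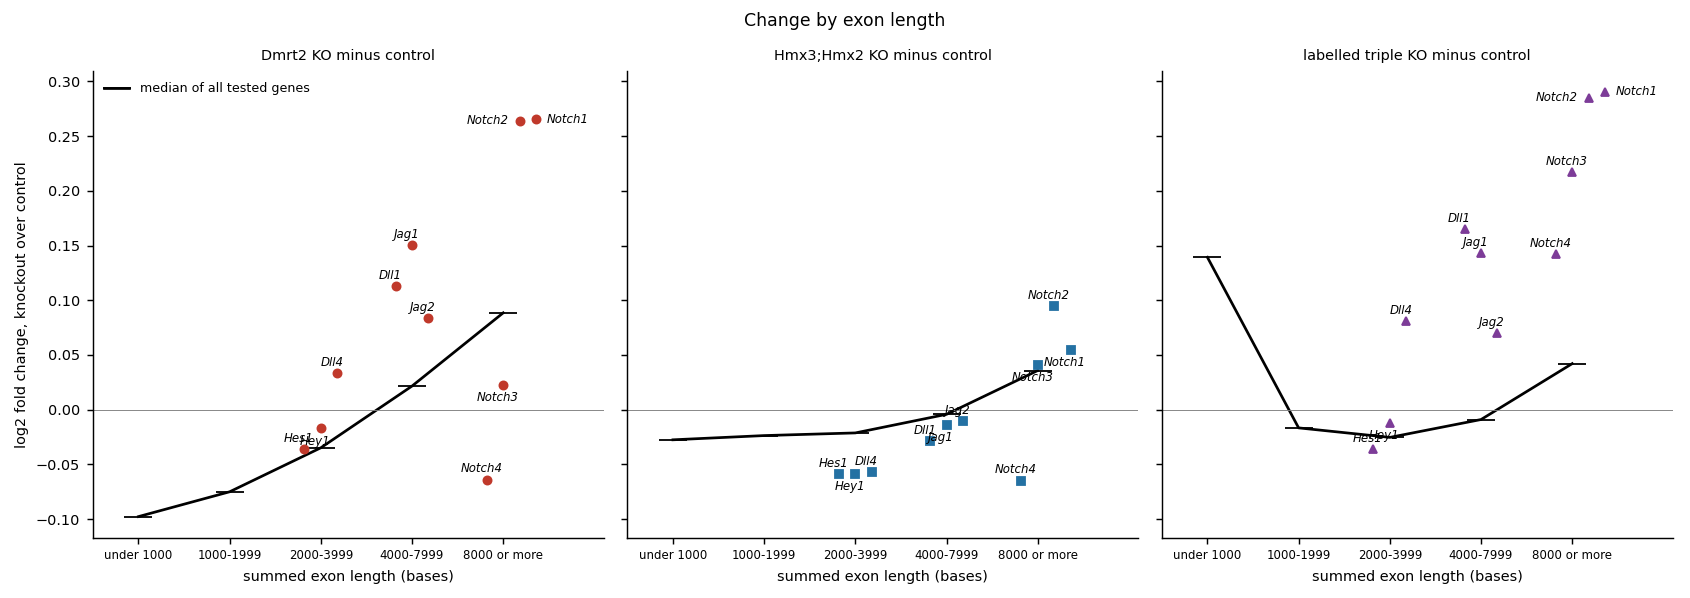
Log2 fold change of knockout over control (vertical axis) by summed exon length (horizontal axis, 5 classes in bases) in the Dmrt2, Hmx3; Hmx2 and triple comparisons, with the median of all tested genes as a black line and each Notch pathway gene as a point. Genes of 8000 bases or more have medians of 0.09, 0.04 and 0.04, genes under 1000 bases -0.10, -0.03 and 0.14, and Notch1 and Notch2 lie above the long-gene medians, at 0.27 and 0.26 in the Dmrt2 comparison and 0.29 and 0.28 in the triple comparison.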

How the data were processed

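Bulk RNA of whole embryonic kidneys was measured in 24 libraries, grouped by the genotype in the sample labels. The deposited values are read counts per gene in 4 tables, not normalized. The submitters' processing notes name fastp 0.20.1, STAR 2.7.0e, featureCounts 2.0.1 and the build mm39. Per the file headers, counting used featureCounts 2.0.3 on a filtered GENCODE annotation in paired mode, without strand and without multi-mapping reads, so each read of a pair counts and reads shared with near-identical copies are lost. The tables hold 2 columns that match no sample, and these were not used. No 2 libraries of one group agreed within counting noise (42 pairs compared), so none counted as a duplicate.

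From the counts, each knockout was compared with controls of its own line by the robust quasi-likelihood test of edgeR 4.0.16 (R 4.3.3), after filterByExpr (minimum count 10, total 15) and TMM scaling. P-values were adjusted by Benjamini-Hochberg over all genes tested, and a gene at 0.05 or less is called. The deposited table was a term for the Hmx3; Hmx2 line. Differences between effects came from a fit of 24 libraries. CPM use TMM-scaled totals over all libraries, and log2 levels for correlations a prior count of 2. SE was taken from the F statistic (size of the log2 fold change over root F). The tests were also run on simulated counts. A set log2 fold change of 0.26 was called for 15.9% of changed genes in the Dmrt2, 40% in the Hmx3; Hmx2 and 8.33% in the triple comparison. A log2 fold change of 1 was called for 85.1%, 95.1% and 74.6% in the same order. A log2 fold change of 2 was called for 100% in each, and 12 or 13 unchanged genes were called per comparison. The changed genes were not matched to the members' read counts, so these rates are not those of the members. Alternatives were DESeq2 1.42.0, RLE factors, other filters, a replicate block, Y-linked expression, single tables, a joint fit, leaving out each library and, added after the data were seen, a long-gene covariate.

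The 10 members and the lists of pathway genes and markers were chosen with earlier results of these data known. Named beyond the members were pathway genes with an adjusted p of 0.05 or less, otherwise the 3 with the smallest p in each comparison, and the 3 genes most like each member over genes with a mean of at least 1 CPM. Mib1, Elf5, Foxi1, Avpr2, Aqp2, Atp6v1g3, Hsd3b2, Zfp697, Gpsm1, Col11a2, Tap1 and Atat1 were named after their values were seen. Promoters came from a RefSeq table on GRCm38.p6. A protein comparison of the members was not made here.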

Additional observations from a re-analysis of the deposited data

How the results depend on the processing

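The number of genes called moved with the processing. In the Dmrt2 comparison 88 genes were called, against 434 with DESeq2, 676 without a filter on low counts, 13 with Y-linked expression as a covariate, 9 with the long-gene level as a covariate, and 26 to 195 when single libraries were left out. In the Hmx3; Hmx2 comparison 4 were called, against 2 with a mean of at least 1 CPM, 2 in replicates 1 to 3 alone, 2 in replicates 4 to 6 alone, and 4 whichever library was left out. In the triple comparison 222 were called, against 1077 with DESeq2, 1510 without a filter, 41 with the long-gene level, 573 in the joint fit, and 20 to 438 when single libraries were left out. For effect differences, the triple minus Dmrt2 count was 87 (37 to 118 without single libraries), triple minus Hmx3; Hmx2 214 (49 to 279, and 333 with a mean of at least 1 CPM) and Dmrt2 minus Hmx3; Hmx2 34 (13 to 49). The cause of these shifts was not tested.

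Members called numbered 0 in the main tests, 2 in the Dmrt2 comparison with DESeq2 and 2 without a filter, and in the triple comparison 3 with DESeq2, 3 without a filter, 1 with Y-linked expression and 0 to 1 when single libraries were left out. In the Hmx3; Hmx2 comparison and for effect differences the number was 0 under every alternative run. The labels do not say that replicate numbers pair the samples, and correlations of same-numbered libraries ran from -0.42 to 0.37. The same-numbered control was the most similar one for Dmrt2 knockouts 1 and 2 and Hmx3; Hmx2 knockouts 2, 4 and 5. For the other knockouts, and for every library labelled triple knockout, it was not. Whether numbers pair samples was thus not settled. With the replicate block 82 genes were called in the Dmrt2, 4 in the Hmx3; Hmx2 and 58 in the triple comparison, with 0 members in each.

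Notch1, Notch2 and Jag1 stayed positive in the Dmrt2 comparison, and all receptors, Dll1, Dll4 and Jag1 in the triple comparison, under every alternative run. Other signs turned. With the long-gene covariate, the Dmrt2 comparison gave -0.017 for Notch3, -0.18 for Dll4, -0.14 for Jag2 and 0.14 for Hes1, and the Hmx3; Hmx2 comparison -0.10 for Notch1, -0.10 for Notch2, -0.041 for Notch3 and 0.0031 for Jag2. With Y-linked expression, Dll1 was -0.015 in the Dmrt2 and Jag1 0.0024 in the Hmx3; Hmx2 comparison. Replicates 1 to 3 alone gave 0.025 for Jag2. Replicates 4 to 6 alone gave -0.038 for Notch1, -0.0097 for Notch2, -0.0020 for Notch3, 0.0079 for Jag1 and 0.0085 for Hey1. A mean of at least 1 CPM gave 0.0064 for Hey1 in the triple comparison. When single libraries were left out, the Dmrt2 comparison ranged from -0.0030 to 0.039 for Notch3, -0.011 to 0.22 for Dll1, -0.0013 to 0.069 for Dll4, -0.095 to 0.079 for Hes1 and -0.063 to 0.0064 for Hey1. The Hmx3; Hmx2 comparison ranged from -0.0071 to 0.11 for Notch1, -0.035 to 0.010 for Jag1 and -0.038 to 0.017 for Jag2, and the triple comparison from -0.020 to 0.115 for Jag2 and -0.072 to 0.052 for Hey1.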
